A study of Drosophila melanogaster with 4 samples.

Results

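Aminoacyl-tRNA synthetases charge each transfer RNA with its own amino acid, and the 33 genes described here encode such enzymes in Drosophila melanogaster. They were chosen by symbol: a three-letter amino acid code, or GluPro, followed by RS, and by -m for an enzyme that works in mitochondria. The rule found 18 cytosolic and 15 mitochondrial genes among 13968 protein-coding genes on the chromosome arms. Genes without -m are called cytosolic here, although a symbol does not show whether such an enzyme also works in mitochondria. The data are lists of peaks from chromatin immunoprecipitation and sequencing (ChIP-seq) of Distal-less (Dll), a homeodomain transcription factor known for specifying legs and antennae. Whole embryos of the Dll-GFP strain, aged 0 to 24 h, carried a transgene for a fusion of Dll with eGFP. Their chromatin was sonicated to 200 to 800 bp and precipitated with an antibody against GFP. The 4 biological replicates form 1 group, with no second genotype or stage to compare, and the control library was not analysed here. Because whole embryos were used, binding in fewer cells and weaker binding per cell cannot be told apart.

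Protein synthesis in the cytosol and in mitochondria uses separate sets of transfer RNAs. All synthetases are encoded in the nucleus, and the mitochondrial enzymes are imported to charge the transfer RNAs of the mitochondrial genome. Cytosolic synthetases are known as housekeeping genes, needed in every cell that makes protein, and several of them assemble into a multisynthetase complex. Glutamate and proline share 1 cytosolic enzyme in the fly, GluProRS, which joins both activities in a single chain.

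A gene was counted as having a peak when a summit, the highest point of a peak, lay within 500 bp of one of its annotated transcription start sites. The authors deposited for each replicate a long ranked list of candidate peaks, of 39011 to 44390 peaks on the chromosome arms, and a thresholded list of 2523 to 3610. A conservative list of 5203 peaks was derived from all replicates together, per the labels, but which replicates set its threshold is not clear. The lists give no reads per library, and library depth is unknown. Replicate 3 had the shortest thresholded list and replicates 1 and 2 the longest, with 3609 and 3610 peaks.

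Sequences at summits present in every replicate are shown first, beside promoters without a summit, so that the letters under the peaks can be read against the words counted further on. Each stretch was read from the RefSeq Release 6 genome (dm6) on the strand of the synthetase gene, 50 bp to each side of the conservative summit, and was shortened where an annotated exon began. Capitals mark every match, on either strand, to any of 8 short words searched, which are described further on. TrpRS (chr3R:9266906-9267006, minus strand), GluProRS (chr3R:23958401-23958501, minus strand), GlnRS (chr3R:25265751-25265843, minus strand), ArgRS (chrX:15844322-15844422, minus strand), IleRS (chr3L:22288601-22288664, plus strand), AlaRS (chr2L:8381765-8381820, minus strand) and AsnRS (chr2L:19132197-19132297, minus strand) are cytosolic genes with a thresholded summit in every replicate. AspRS-m (chr2L:16827010-16827077, plus strand) is the only mitochondrial one with that support. MetRS, AspRS and SerRS, also present in every replicate, are not printed. Within 50 bp of the summit AspRS held TATCGATA and CGATAT, SerRS held TATAAA, and MetRS held none of the 8 words.
TrpRS: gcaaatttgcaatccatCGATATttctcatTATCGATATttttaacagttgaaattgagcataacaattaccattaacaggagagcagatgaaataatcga
GluProRS: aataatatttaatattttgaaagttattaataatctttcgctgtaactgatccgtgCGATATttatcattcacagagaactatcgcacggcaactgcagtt
GlnRS: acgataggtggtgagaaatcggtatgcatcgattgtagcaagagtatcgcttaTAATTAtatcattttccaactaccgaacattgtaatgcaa
ArgRS: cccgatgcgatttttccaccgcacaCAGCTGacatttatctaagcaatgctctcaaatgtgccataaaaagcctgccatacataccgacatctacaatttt
IleRS: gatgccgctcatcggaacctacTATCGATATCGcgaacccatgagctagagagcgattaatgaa
AlaRS: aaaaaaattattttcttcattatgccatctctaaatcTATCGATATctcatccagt
AsnRS: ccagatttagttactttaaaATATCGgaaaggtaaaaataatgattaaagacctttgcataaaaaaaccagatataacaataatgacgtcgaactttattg
AspRS-m: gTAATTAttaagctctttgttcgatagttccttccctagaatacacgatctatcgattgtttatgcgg

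A contrast is given by genes without a conservative summit, for which the stretch lies just before the start site. LeuRS (chr2L:3514666-3514766, minus strand) and ThrRS (chr2L:12103641-12103741, plus strand) are cytosolic genes with no thresholded summit in any replicate. MetRS-m (chr3R:14260001-14260101, minus strand) is the mitochondrial gene with the weakest mean rank of all 33.
LeuRS: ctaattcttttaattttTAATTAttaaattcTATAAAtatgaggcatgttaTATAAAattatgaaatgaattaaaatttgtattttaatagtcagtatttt
ThrRS: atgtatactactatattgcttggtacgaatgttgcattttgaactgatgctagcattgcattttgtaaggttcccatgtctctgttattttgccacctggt
MetRS-m: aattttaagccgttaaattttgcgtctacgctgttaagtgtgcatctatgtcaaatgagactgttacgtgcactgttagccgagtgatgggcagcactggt

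In the conservative list the synthetase genes of both compartments were marked at similar rates. A summit lay near 11 of 18 cytosolic genes (61.1%) and near 9 of 15 mitochondrial genes, together 20 of 33 (60.6%). The background was 32.7% of all protein-coding genes. This list comes from all replicates together and gives no replicate error. The similar rates were particular to some lists, as the other series-level lists gave 11 to 13 cytosolic and 3 to 9 mitochondrial genes.

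The replicates' own thresholded lists showed a gap between the compartments. A cytosolic summit was found for 10 genes in replicate 1, 12 in replicate 2, 11 in replicate 3 and 11 in replicate 4, which is 61.1% ± 4.54 (SD, n = 4) of the 18. Mitochondrial genes had 4, 5, 1 and 2, in the same order, or 20% ± 12.2 (SD, n = 4) of the 15. The share of all protein-coding genes with such a summit was 26.2% in replicate 1, 27.1% in replicate 2, 20.5% in replicate 3 and 22.6% in replicate 4. The cytosolic share was therefore above this background in every replicate, while the mitochondrial share was above it in replicates 1 and 2, by less than the SD, and below it in replicates 3 and 4.

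The cytosolic share exceeded the mitochondrial share by 41.1 ± 12 percentage points (SD, n = 4), with a range of 28.9 to 54.4 over the replicates. The direction was the same in 4 of 4 replicates, and an exact two-sided sign-flip permutation test gave p = 0.125, which is the smallest that 4 replicates allow, so the threshold of 0.05 could not be reached. All 33 genes together were at 42.4% ± 6.55 against 24.1% ± 3.05 for all protein-coding genes, a difference of 18.3 ± 4.10 points (SD, n = 4) that was positive in 4 of 4 replicates (exact permutation p = 0.125). Adjustment by Benjamini-Hochberg over the 3 tests of this kind left both at 0.125. These p-values measure only the spread between samples.

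Cutting every thresholded list to its 2523 strongest peaks left 10, 10, 11 and 11 cytosolic and 1, 3, 1 and 2 mitochondrial genes in replicates 1 to 4. At that length the share of all protein-coding genes was 22.0%, 22.4%, 20.5% and 22.1%, so the mitochondrial shares lay below the background. When each summit was counted only for the gene with the nearest start, the difference between the compartments fell to 19.4 points, because on average 6.50 cytosolic genes per replicate then kept a summit.

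**Figure D1:**
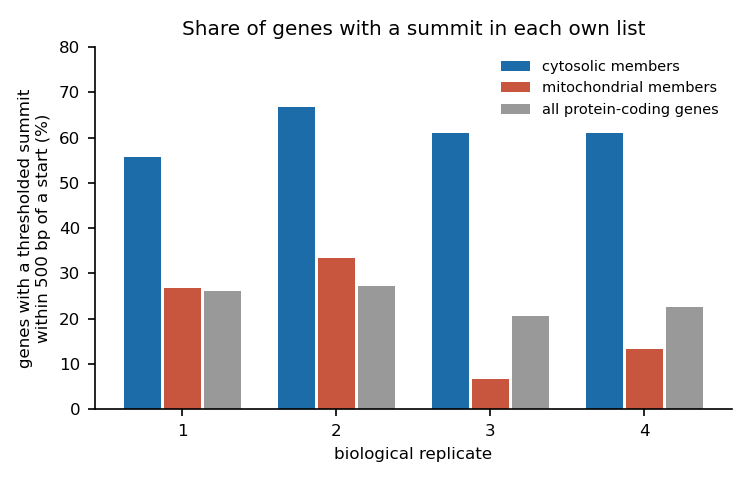
Share of genes (percent) with a thresholded summit within 500 bp of a start, in each of 4 replicates, for 18 cytosolic, 15 mitochondrial and all 13968 protein-coding genes. Each bar is 1 replicate. The cytosolic bars lie between 55.6% and 66.7%, above all bars of the other groups, and the mitochondrial bars run from 6.67% to 33.3%.

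Counting how many replicates supported each gene sharpened the contrast. A summit in all 4 thresholded lists was found for 10 of 18 cytosolic genes (55.6%), for 1 of 15 mitochondrial genes (6.67%) and for 17.6% of all protein-coding genes. The 10 cytosolic genes were GluProRS, TrpRS, GlnRS, MetRS, ArgRS, AsnRS, IleRS, AlaRS, AspRS and SerRS, and the mitochondrial gene was AspRS-m. No synthetase gene had a summit in exactly 3 lists, beside 3.89% of all protein-coding genes. AlaRS-m had one in replicates 2 and 4, and LeuRS-m in replicates 1 and 2.

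A single replicate supported 8 more genes (24.2%), beside 6.01% of all protein-coding genes. Among cytosolic genes these were CysRS in replicate 3, GlyRS in replicate 4, and LysRS and ValRS in replicate 2. Among mitochondrial genes they were ArgRS-m and PheRS-m in replicate 1, and TyrRS-m and ProRS-m in replicate 2. The remaining 12 had none: the cytosolic genes ThrRS, LeuRS, TyrRS and HisRS, and the mitochondrial genes CysRS-m, GluRS-m, ValRS-m, TrpRS-m, AsnRS-m, SerRS-m, IleRS-m and MetRS-m. Of all protein-coding genes, 68.4% had none.

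The cytosolic genes thus fell into a group present in every replicate and a group present in at most 1. Most mitochondrial genes were in the second group. Few of all protein-coding genes fell between these groups either, with 4.08% in 2 lists and 3.89% in 3. Counting summits for the nearest start only left 4 of 18 cytosolic genes in all 4 lists, namely GluProRS, IleRS, AlaRS and MetRS. Among the mitochondrial genes it left AspRS-m. The share of all protein-coding genes in all 4 lists under that rule is not given here. Under that rule AspRS kept 3 lists, ArgRS and SerRS 2 each, TrpRS 1, and GlnRS and AsnRS none.

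Below the threshold nearly every synthetase gene carried at least a weak candidate peak. In the ranked lists of replicates 1 to 4 a candidate summit lay near 18, 18, 16 and 18 of the 18 cytosolic genes and near 15, 15, 14 and 13 of the 15 mitochondrial genes. The background shares of all protein-coding genes were 61.8% in replicate 1, 60.7% in replicate 2, 62.9% in replicate 3 and 60.6% in replicate 4.

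To compare strength across lists of unequal length, the 13968 genes were ranked within each replicate by the signal of their strongest candidate summit, with rank 1 the strongest. Genes sharing a summit share a mean rank, so that some ranks carry a fraction, and genes without a candidate summit are tied last. The median cytosolic rank was 2576 in replicate 1, 2460 in replicate 2, 1924 in replicate 3 and 2615 in replicate 4. The median mitochondrial rank was 4774, 3915, 5290 and 4364 in the same order. The medians of the compartments did not overlap.

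The means were 2394 ± 320 and 4586 ± 586 (SD, n = 4), and cytosolic minus mitochondrial was -2192 ± 840 ranks, negative in 4 of 4 replicates (exact two-sided permutation p = 0.125, adjusted 0.125, the smallest allowed). The rank difference depended on which gene a shared summit was counted for. With the nearest start only, it averaged -24.5 ranks (exact permutation p = 1.00), and the cytosolic median was the weaker one in 3 of 4 replicates, by 140, 306 and 641 ranks, against -1186 in replicate 3. With only the outermost start of each gene it was -1438.

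**Figure D2:**
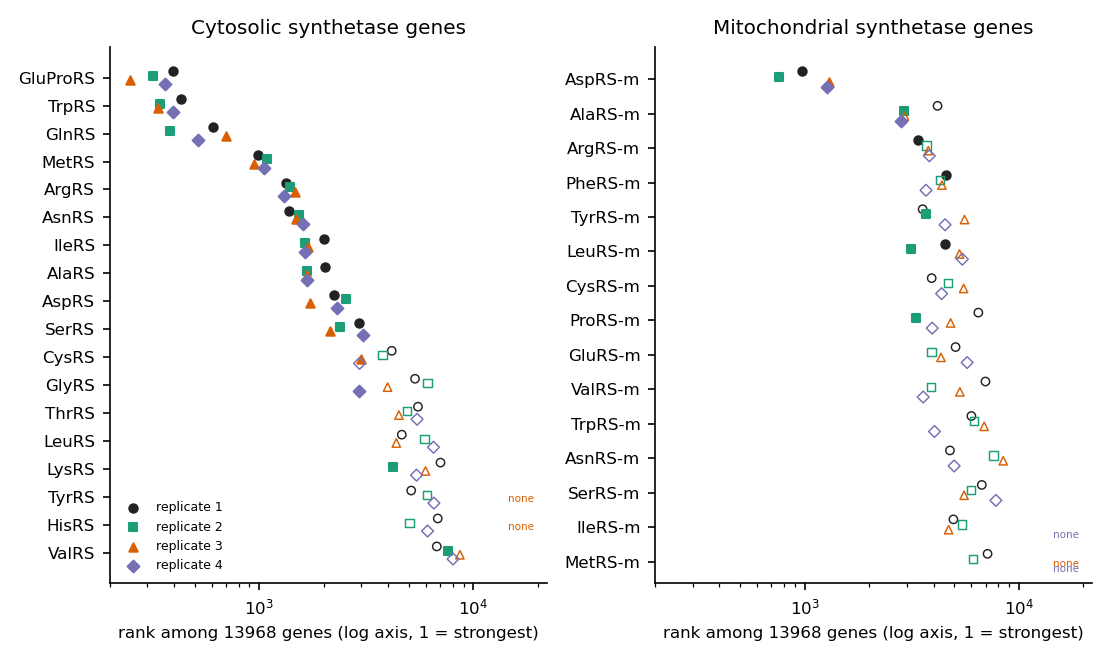
Rank of each synthetase gene among all 13968 protein-coding genes (log axis, 1 = strongest candidate summit) in replicates 1 to 4. Filled points had a thresholded summit in that replicate, open points a candidate summit only, and "none" marks a replicate with no candidate summit. GluProRS and TrpRS lie between ranks 249.5 and 430.5 in all replicates, and AspRS-m, at 757 to 1303, stands apart from the other mitochondrial genes.

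GluProRS was the strongest synthetase gene. It ranked 396.5, 319.5, 249.5 and 361.5 in replicates 1 to 4, a mean of 332 ± 63.2 (SD, n = 4). Its conservative peak spans chr3R:23958120-23958740 (dm6), with the summit 60 bp upstream of the start and between genes. Within the replicates' thresholded lists this peak stood 6.68% ± 1.02 from the top by signal.

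TrpRS, which charges the tryptophan transfer RNA, followed with ranks of 430.5, 343.5, 335.5 and 395.5, a mean of 376 ± 44.9 (SD, n = 4). Its peak at chr3R:9266660-9267173 had its summit 52 bp upstream of the start. The ranges of GluProRS and TrpRS over replicates overlapped, but within each replicate GluProRS was ahead of TrpRS, in 4 of 4, and this order was not tested. GlnRS, the glutaminyl enzyme, ranked 608.5, 381.5, 699.5 and 517.5, with a peak at chr3R:25265578-25266075.

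MetRS, which loads methionine, varied little, at 985.5, 1083.5, 942.5 and 1053.5 (mean 1016 ± 64.0, SD, n = 4). Every replicate placed its summit 105 to 116 bp upstream of the start. ArgRS, on chromosome X, ranked 1332.5, 1390.5, 1468.5 and 1301.5. AsnRS ranked 1371.5, 1529.5, 1490.5 and 1594.5, and its conservative summit was the farthest upstream among those of the cytosolic genes, at 293 bp. The ranks of ArgRS and AsnRS overlapped, and neither overlapped those of MetRS.

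The other 4 cytosolic genes present in all replicates had mean ranks of 1738 ± 177 for IleRS, 1759 ± 175 for AlaRS, 2200 ± 346 for AspRS and 2626 ± 445 for SerRS. The SerRS peak was among the weaker thresholded ones, at 61.3% ± 11.9 from the top. The AspRS summit lay at an alternative start inside the annotated gene, and with only the outermost start of each gene the cytosolic count in all 4 lists was 9.

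Among the cytosolic genes with at most 1 supporting replicate, mean ranks ran from 3465 ± 595 for CysRS through 4586 ± 1422 for GlyRS, 5088 ± 488 for ThrRS, 5353 ± 1023 for LeuRS and 5659 ± 1169 for LysRS. The weakest were the tyrosyl, histidyl and valyl enzymes. TyrRS ranked 5124.5, 6095.5 and 6541.5 in replicates 1, 2 and 4 and had no candidate summit in replicate 3. HisRS ranked 6818, 5029 and 6111 in those replicates and also had none in replicate 3. ValRS ranked 6747, 7650, 8655 and 8034, although its candidate in replicate 2 passed the threshold.

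AspRS-m, the mitochondrial aspartyl enzyme, was the exception in its compartment. It ranked 974, 757, 1303 and 1276 (mean 1078 ± 261, SD, n = 4), a range that includes that of MetRS. Its peak at chr2L:16826807-16827356 had its summit 18 bp upstream of the start, and every replicate placed the summit between 28 bp upstream and 15 bp downstream. It stood 24.0% ± 9.90 from the top of the thresholded lists.

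The next mitochondrial genes were weaker. AlaRS-m ranked 4177.5, 2900.5, 2927.5 and 2834.5. ArgRS-m ranked 3374.5, 3705.5, 3782.5 and 3824.5, the narrowest range of the class. None of these ranks overlapped those of AspRS-m.

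PheRS-m, a single-chain mitochondrial phenylalanyl enzyme, ranked 4561, 4290, 4382 and 3690. TyrRS-m ranked 3558.5, 3694.5, 5584.5 and 4528.5, and LeuRS-m ranked 4534.5, 3137.5, 5289.5 and 5454.5. Both were stronger in replicates 1 and 2 than in replicate 3 or 4.

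The other mitochondrial genes had mean ranks of 4621 for CysRS-m, 4636 for ProRS-m, 4766 for GluRS-m, 4944 for ValRS-m, 5778 for TrpRS-m and 6468 for AsnRS-m, each with an SD of at least 679. SerRS-m ranked 6723, 6002, 5559 and 7824. IleRS-m ranked 4955, 5431 and 4706 in replicates 1 to 3 and had no candidate summit in replicate 4. MetRS-m ranked 7154 and 6115 in replicates 1 and 2 and had none in replicates 3 and 4.

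The threshold of the own lists is a global irreproducible discovery rate (IDR) of 0.01, a −log10 value of 2. Several synthetase genes passed it in some replicates and lay far below it in others. CysRS had −log10 IDR values of 1.76, 0.77, 2.17 and 1.08 in replicates 1 to 4, ArgRS-m 2.13, 1.88, 0.24 and 0.51, and PheRS-m 2.34, 1.75, 0.93 and 1.29. LysRS passed in replicate 2 at 2.09 and was at 0.58, 0.09 and 0.21 in replicates 1, 3 and 4. LeuRS-m passed in replicates 1 and 2 at 2.07 and 2.90 and was at 0.46 and 0.45 in replicates 3 and 4. GluProRS, in contrast, was at the cap of 5 in all replicates and MetRS between 4.02 and 4.24.

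For 12 amino acids both a cytosolic and a mitochondrial gene were found. The cytosolic gene was stronger in 4 of 4 replicates for 7 of them, namely alanine, arginine, asparagine, isoleucine, methionine, serine and tryptophan. The mitochondrial gene was stronger in 4 of 4 replicates for aspartate and tyrosine. Cysteine, leucine and valine were mixed.

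The widest gap belonged to methionine, where MetRS and MetRS-m differed by -7950 ± 2755 ranks (SD, n = 4) with the missing summits of MetRS-m tied last. TrpRS and TrpRS-m differed by -5402 ± 1243 ranks, and ArgRS and ArgRS-m by -2298 ± 197. For aspartate the order was the opposite, with AspRS weaker than AspRS-m by 1122 ± 564 ranks although both were present in all 4 thresholded lists. For leucine the difference of 749 ± 1570 ranks was smaller than its spread. 

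The order of the pairs depended on the counting of shared summits. With the nearest start only, the cytosolic gene was stronger in 4 of 4 replicates for 4 amino acids (alanine, cysteine, isoleucine and methionine) and the mitochondrial gene for 1, aspartate. The mean order turned for 5 of the 12 pairs. TrpRS then had a mean rank of 8168 against 4623 for TrpRS-m, and ArgRS 5836 against 2702 for ArgRS-m. AsnRS was tied last without a candidate summit, at 10780 against 9159 for AsnRS-m, which was the stronger in only 2 of 4 replicates. SerRS was at 6250 against 5354 for SerRS-m, and TyrRS at 6262 against 7120 for TyrRS-m, the only pair that turned toward the cytosolic gene. The 4 pairs that turned toward the mitochondrial gene are among the 7 named above.

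**Figure D3:**
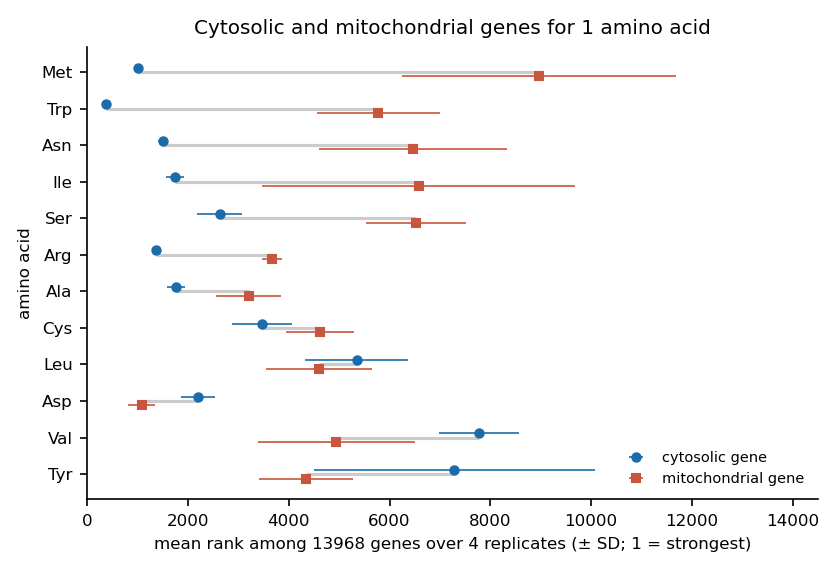
Mean rank among all 13968 protein-coding genes over 4 replicates (± SD, 1 = strongest, missing summits tied last) for the cytosolic and the mitochondrial gene of each of 12 amino acids. The cytosolic point lies left of the mitochondrial one for 8 amino acids, with the opposite order for aspartate, leucine, tyrosine and valine. Every gene within 500 bp of a summit is counted, and with the nearest start only the order turns for 5 of the 12.

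GlnRS, GluProRS, GlyRS, HisRS, LysRS and ThrRS had no mitochondrial counterpart under the symbol rule, and GluRS-m, PheRS-m and ProRS-m had no cytosolic one. Whether any gene without a mitochondrial counterpart serves both compartments cannot be read from its symbol. As background, mitochondria make glutaminyl transfer RNA indirectly from the glutamyl form, and the cytosolic phenylalanyl enzyme has separate alpha and beta subunits whose symbols the rule does not take. Grouped after their values were seen, 6 of the 8 enzymes of the multisynthetase complex (GluProRS, IleRS, LeuRS, MetRS, GlnRS, LysRS, ArgRS and AspRS) had a summit in all 4 lists, against 4 of the other 10 cytosolic genes and 17.6% of all protein-coding genes. With the nearest start only, these counts were 3 of 8 and 1 of 10, and the 17.6% does not apply to that rule. Of the structural classes into which synthetases fall, class I had 5 of 9 and class II had 4 of 8 (2 and 1 with the nearest start only), leaving out GluProRS, which joins an enzyme of each.

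The conservative peaks of the compartments differed in form. Of the 5203 conservative peaks, 2574 (49.5%) were exactly 596 bp wide, and 2573 of these had the summit in the middle. Only 9.09% of them overlapped a thresholded peak in all 4 replicates, against 85.4% of the 2629 peaks of other widths. Of the synthetase peaks, 1 of 11 cytosolic (CysRS) and 8 of 9 mitochondrial (all but AspRS-m) had this width. The similar conservative shares of the compartments therefore came from different kinds of peak. Among conservative peaks overlapping at least 3 own lists, 10 of 18 cytosolic genes and 1 of 15 mitochondrial genes were left. The share of all protein-coding genes under this filter is not given here.

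Every counted summit lay within 500 bp of a start by the rule, so only its position inside that window is described here. The cytosolic offsets ran from 293 bp upstream to 46 bp downstream, with a median of -52 bp, and 9 of 11 were upstream. The mitochondrial offsets ran from 177 bp upstream to 116 bp downstream, with a median of -18 bp, and 6 of 9 were upstream. Of all protein-coding genes with a conservative summit, 78.7% had it upstream, with a median of -73 bp.

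By annotation, 8 cytosolic summits lay between genes and 3, those of AspRS, CysRS and SerRS, in an untranslated part of an exon. Of the mitochondrial summits, 4 lay between genes (LeuRS-m, IleRS-m, ArgRS-m and AspRS-m) and 4 in an untranslated part of an exon (AlaRS-m, CysRS-m, TyrRS-m and PheRS-m). That of GluRS-m lay in its coding exon, 116 bp downstream of its start, on chromosome 3L next to TyrRS, which is the adjacent gene upstream on the same strand.

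For the 13 synthetase genes without a conservative summit, the nearest such summit lay outside the counting window by definition. Distances for other genes without a summit are not given here, so the distances below cannot be called near or far. GlyRS was just outside the window, with the nearest summit 562 bp away. For the other 12 the distance ran from 2009 bp for ValRS-m to 18969 bp for MetRS-m, with 15698 bp for LeuRS and 16220 bp for ProRS-m.

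**Figure D4:**
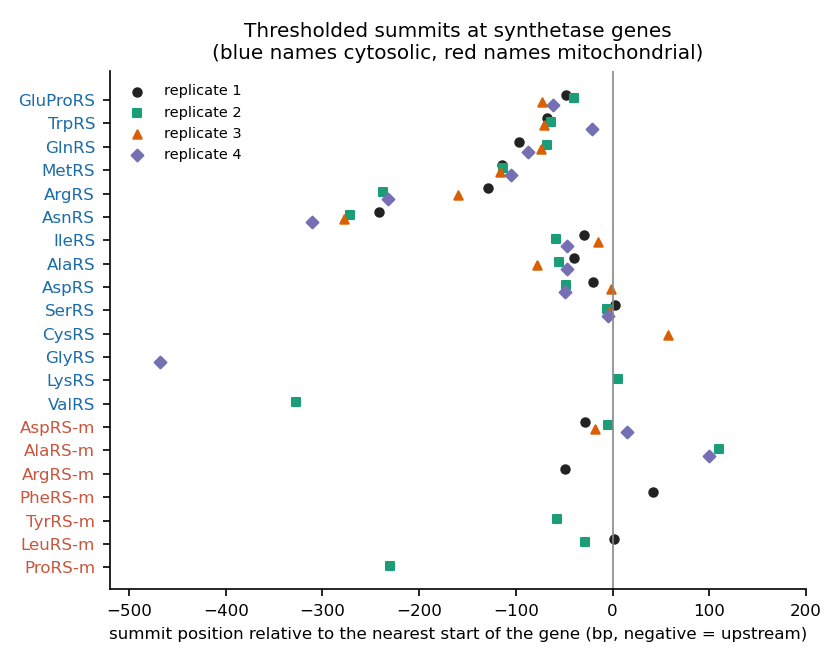
Position of the summit relative to the nearest start of each synthetase gene (bp, negative = upstream) in the thresholded list of each replicate. Most summits of the cytosolic genes lie within about 100 bp of the start, ArgRS and AsnRS lie farther upstream, and the only thresholded summit of GlyRS is 468 bp upstream.

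Most cytosolic synthetase genes stand head to head with another gene, that is, a protein-coding start on the opposite strand lay within 1000 bp upstream. This held for 16 of 18 cytosolic genes (88.9%), for 7 of 15 mitochondrial genes (46.7%) and for 36.2% of all protein-coding genes. Of all 5052 genes in this arrangement, 33.3% had a summit in all 4 lists, against 8.76% of the other 8916. Among them were 9 of the 16 cytosolic and 0 of the 7 mitochondrial synthetase genes, and in the other arrangement 1 of 2 (AlaRS) and 1 of 8 (AspRS-m). How far this arrangement accounts for the difference between the compartments was not tested.

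The summit itself was usually shared. Of the 11 cytosolic genes with a conservative summit, 9 (81.8%) had it within 500 bp of another gene as well, as did 5 of 9 mitochondrial genes (55.6%) and 57.4% of all genes with such a summit. AlaRS, CysRS, AspRS-m, GluRS-m, PheRS-m and IleRS-m shared theirs with no other gene.

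The conservative summit was nearer to the synthetase for some pairs, and the replicates' own summits did not always follow it. It lay 60 bp from GluProRS and 200 bp from AP-1sigma, a clathrin adaptor subunit, and 14 bp from IleRS and 456 bp from Hem, a part of the actin-regulating WAVE complex. TrpRS and Vps16A, which acts in vesicle tethering, were 52 and 63 bp away. MetRS (113 bp) shared with CG15084 (132 bp), AspRS (20 bp) with Nmda1 (34 bp), and SerRS (3 bp) with CG17260 (11 bp).

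For 3 cytosolic genes the conservative summit was nearer to the neighbour. The summit lay 293 bp from AsnRS and 76 bp from DCTN6-p27, a dynactin subunit, 80 bp from GlnRS and 43 bp from RIOK2, a kinase of ribosome assembly, and 227 bp from ArgRS and 104 bp from CG8578. The start of CG8578 lies 331 bp upstream of ArgRS, and the own summits of replicates 1 and 3, 129 and 160 bp upstream, were nearer to ArgRS. Among mitochondrial genes the conservative summit was nearer to the synthetase for LeuRS-m (78 bp), which shared with the dynein heavy chain Dhc64C (88 bp), for AlaRS-m (94 bp), which shared with Fitm (129 bp), a gene of fat storage, and for ArgRS-m (7 bp), which shared with CG17816 (305 bp). It was nearer to the neighbour where CysRS-m (177 bp) shared with O-fut1 (9 bp), which fucosylates Notch, and TyrRS-m (74 bp) with CG3589 (19 bp).

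**Figure D5:**
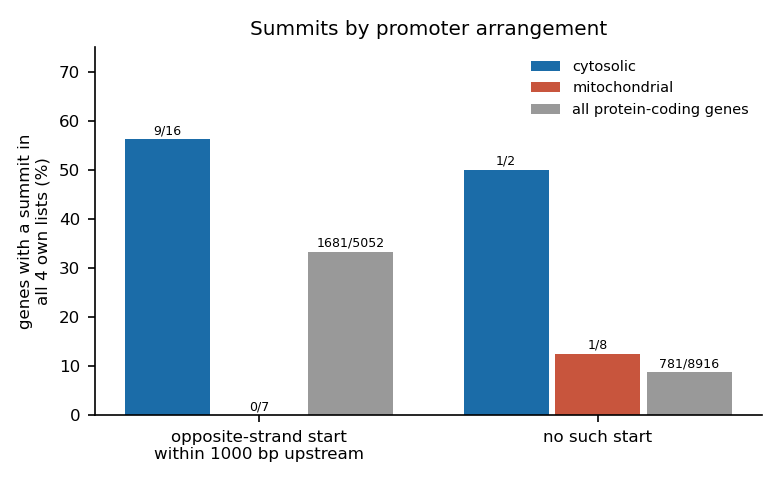
Share of genes (percent) with a thresholded summit in all 4 replicates, for genes with and without a head-to-head neighbour within 1000 bp, in cytosolic, mitochondrial and all protein-coding genes. Head-to-head cytosolic genes are at 9 of 16 and mitochondrial ones at 0 of 7, beside 33.3% of all such genes.

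The 8 words were searched on both strands in promoters, from 250 bp before to 50 bp after the outermost start, a window of 301 bp for every gene. TATCGATA, known as the element of the proliferation factor DREF, was in 4 of 18 cytosolic promoters (TrpRS, IleRS, AlaRS and ArgRS) and 1 of 15 mitochondrial ones (PheRS-m), and in 9.36% of all promoters. The word of the boundary protein BEAF-32, CGATAT, overlaps the first word wherever that is followed by T or preceded by A. It was in 7 cytosolic and 2 mitochondrial promoters, and in 18.6% of all.

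These words went with summits in the synthetase genes and in the genome at large. TATCGATA was in 4 of the 11 synthetase promoters with a summit in all 4 lists (36.4%) and in 1 of the other 22 (4.55%), beside 36.0% of all 2462 genes with that support. CGATAT was in 6 of the 11 (54.5%) and 3 of the other 22, beside 43.2%. The printed stretches of TrpRS, IleRS and AlaRS hold both words overlapping, and those of GluProRS and AsnRS hold CGATAT alone. The stretch of LeuRS holds TAATTA and TATAAA but neither of these words, and those of ThrRS and MetRS-m hold none of the 8.

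The homeodomain core TAATTA, of the kind that Dll-type proteins are known to bind, was in 3 cytosolic and 2 mitochondrial promoters, and in 20.5% of all. Within 50 bp of the summit it was found for GlnRS and AspRS-m, that is 1 of 11 and 1 of 9, beside 7.89% of the 3246 conservative summits near any gene. In the same window TATCGATA was found for AspRS, TrpRS, IleRS and AlaRS (4 of 11) and PheRS-m (1 of 9), beside 16.8%.

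The other words were as follows. CAGCTG, an E-box, was in 9 cytosolic and 7 mitochondrial promoters (48.5% of the 33), beside 17.7% of all promoters, and so was about as frequent in both compartments. The motif of M1BP, GGTCACAC, was in 1 and 3, beside 7.70%. The TATA box word TATAAA was in 11 and 7, beside 45.9%, and GAGAGAG, of the GAGA factor, in 0 and 1, beside 5.86%. TGATGCAA, of the type bound by the amino acid response factor ATF4, was in none of the 33 promoters and in 0.816% of all. It lay within 50 bp of 1 of the 9 mitochondrial summits, that of GluRS-m, beside 0.431% of all summits near genes. A match of letters is a description of the window only.

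Genes that work with the synthetases were counted in the same way, in lists chosen with earlier results of these data known, and are read against 32.7% of all genes with a conservative summit and 17.6% with all 4. The cytosolic phenylalanyl subunits beta-PheRS (mean rank 1106 ± 252) and alpha-PheRS (3035 ± 144) and the mitochondrial seryl synthetase paralog Slimp (4236 ± 1028) all had a conservative summit, and beta-PheRS had all 4. Of the scaffold proteins of the multisynthetase complex, AIMP3 (mean rank 1014) had all 4 and AIMP1 and AIMP2 had a conservative summit only. Of 7 cytosolic elongation factors, which bring charged transfer RNAs to the ribosome or move it along, 4 had a conservative summit and 2 had all 4, namely eEF1gamma (806 ± 186) and eEF2 (850 ± 155).

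Of 12 mitochondrial translation factors and amidotransferase genes found, 9 had a conservative summit and 5 had all 4, namely the release factor mRF1 (642 ± 220), mEFTs (1243 ± 188), mEFG1 (1558 ± 480), GatC of the amidotransferase (1634 ± 275) and mIF3 (2665 ± 782). Of 4 genes of the response to uncharged transfer RNA, the kinase Gcn2 (1878 ± 331) and its substrate eIF2alpha (2288 ± 193) had all 4, crc, the fly ATF4, had 3, and Thor had none. Of 5 genes of transfer RNA maturation, La (701 ± 92.5) had all 4 and 2 had a conservative summit.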

How the data were processed

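Dll-eGFP ChIP-seq peak lists of 4 replicates were used as the authors deposited them, 15 lists in all: a thresholded and a ranked list per replicate, the conservative list and 6 other thresholded series-level lists. The deposited signal is the authors' peak height as their caller gave it. The authors' q value is deposited as −log10, and the ranked lists add a −log10 global IDR. Peaks lie on dm6, per the labels. For the aligner, caller and signal normalization, names and settings were not given in the sources used here. A further 14 signal columns, 1 per unnamed replicate, were left unused. Each replicate's peaks were called separately, and the series-level lists were called on all samples, per the labels.

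Genes and starts came from Ensembl release 115 (BDGP 6.54). Every gene within 500 bp of a summit was counted. Signal was ranked within a list and never compared between lists. Differences were tested over the 4 replicates with an exact sign-flip permutation test, adjusted by Benjamini-Hochberg. Scripts used Python 3.11.15, NumPy 2.4.6, pandas 2.3.3 and matplotlib 3.10.9, and were tested on simulated data. Every synthetase gene is named, with values per replicate for the 6 strongest and 3 weakest of each compartment by mean rank. Alternatives covered the window, the starts, the counting of shared summits, the peak threshold, the lists and leaving out each replicate. The members and lists were chosen with earlier results of these data known. Depth is unknown, so precision comes from the replicates only.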

Additional observations from a re-analysis of the deposited data

Results flagged for a closer look

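Of 35 sets of 4 replicate values examined, 3 held a replicate far from the others relative to the range, where chance gives about 1 in 20. AlaRS ranked 2021 in replicate 1 and 1669 to 1676 in the others. AlaRS-m ranked 4177.5 in replicate 1 and 2834.5 to 2927.5 in the others. IleRS-m had no candidate summit in replicate 4, where it was tied last at rank 11216.5, and ranked 4706 to 5431 in the others. No cause was tested.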

How the results depend on the processing

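The counting of shared summits mattered most. With the nearest start only, the mean rank difference between the compartments shrank from -2192 to -24.5 (exact permutation p = 1.00) and was positive in 3 of 4 replicates, the order of 5 of 12 amino acid pairs turned, the mean cytosolic count per replicate was 6.50 and the count in all 4 lists 4. The share of all protein-coding genes in all 4 lists by nearest start is not given here. Under the other alternatives the compartment differences in share and rank kept their sign. Among counts of genes, 12 moved by more than 1.5 times, and the causes were not tested beyond what each rule removes. With the upper 50% of peaks by signal, the mitochondrial conservative count was 2 and its mean per replicate 1.00. The other series-level lists that moved it gave 5, 3, 4 and 3 mitochondrial genes, and conservative peaks overlapping at least 3 own lists gave 1, beside 10 cytosolic genes. Equal numbers of peaks, chosen after seeing the data, gave a mitochondrial mean of 1.75. Restricting to genes with no other start within 500 bp, also chosen after seeing the data, left 2 of 3 cytosolic and 4 of 8 mitochondrial genes in the conservative list. Those 2 counts are among the 12, but the rule itself removes genes from the sets. Among the genes left, the compartments differed by 34.4 points in thresholded share and by -1611 ranks. Over all alternatives the compartments differed by 19.4 to 46.7 points and by -2668 to -24.5 ranks, and all 33 genes exceeded the background by 9.43 to 19.7 points. Leaving out each replicate gave 36.7 to 45.2 points, -2437 to -1801 ranks and 16.3 to 19.2 points. The conservative list could not be recomputed without a replicate. No read counts were available, so what depth limits could not be stated.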
